A study of Rattus norvegicus with 16 samples.

Results

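The genes described here make cholesterol, sense it and move it between and within cells. They were chosen by name, from a list of 33 genes covering the synthesis enzymes, the sterol sensing proteins, the liver X receptor and its export targets, and the proteins of uptake, transport, storage and turnover. Of the 33, 30 were measured by a probe set that the array annotation ties to that gene alone and whose mean log2 value over the 16 arrays was above 4. Hmgcs1 and Mvk were not named in the annotation used, and Srebf1 was named only on a probe set shared with another gene. So the levels of these 3 were not analysed here, though their promoters were searched. The 30 genes stand among 10423 genes tested in all.

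The samples were prefrontal cortex (PFC) of adult male Sprague–Dawley rats, 8 controls left undisturbed in their home cages and 8 rats subjected to footshock (FS) and killed right after the session. Shocks of 0.8 mA, 20 min of them in total, were spread over 40 min and could not be escaped. Total RNA of the whole dissected PFC was hybridised to Affymetrix Rat Gene 1.0 ST arrays, 1 array per sample. All values below are log2 levels after robust multi-array average (RMA) normalisation, and all differences are FS minus Control on that scale. Because the tissue was bulk PFC, fewer cells of a type and less RNA per cell cannot be told apart.

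Cholesterol is built from acetyl-CoA through mevalonate, farnesyl pyrophosphate, squalene and lanosterol. In the brain nearly all of it is made locally, because lipoprotein cholesterol of the blood does not cross the blood–brain barrier, and most of it lies in myelin. The synthesis genes are driven together by the transcription factor SREBP-2 (gene Srebf2), which the escort protein Scap carries to the Golgi for cleavage when sterols are low and which the Insig proteins hold back when sterols are high. Oxysterols activate the liver X receptors, which raise the export genes Abca1, Abcg1 and Apoe.

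The promoters of 28 of the 33 genes were matched by symbol in the RefSeq table (build GRCr8). In each, 250 bases before the transcription start were searched on both strands. Hmgcs1 and Mvk are among the 15 synthesis enzymes and Srebf1 among the 13 others, though none is among the 8644 tested genes. The CCAAT motif (reverse complement ATTGG, bound by NF-Y, a partner of SREBP at sterol gene promoters) lay in 12 of 15 synthesis enzyme promoters (80.0%), in 8 of 13 promoters of the other genes (61.5%) and in 36.1% of the promoters of 8644 tested genes. GGGCGG, the GC box, lay in 13 of 15, 11 of 13 and 61.1% of these promoters, respectively. Forms of the sterol regulatory element were searched as well. The classical sterol regulatory element, its form with 1 base left free, and TCACNCCAC, the end of that form, had no match in the 28 promoters, against 0, 8 and 80 of the 8644. CACCCCAC, which overlaps these, was found in 1 of the 28 and in 2.3% of all. CACNNCAC, which also overlaps them, was found in 6 of the 28 and in 14.1% of all. A match is only a string of letters, and a missing match says only that these letters are not in the window.

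Shown are the promoters of the 4 genes whose levels went down most steeply as striatal marker levels went up across arrays (described further on). Those of Abca1, with a slope in the other direction, and Npc1, with the smallest p between FS and Control, follow. Capitals mark CCAAT or ATTGG. The 4 genes hold between 1 and 5 of these motifs each, and Abca1 and Npc1 hold none. These promoters were picked by slope or p, and whether the motifs go with the slope was not tested.
Hsd17b7, chr13:84722755-84723004, minus strand: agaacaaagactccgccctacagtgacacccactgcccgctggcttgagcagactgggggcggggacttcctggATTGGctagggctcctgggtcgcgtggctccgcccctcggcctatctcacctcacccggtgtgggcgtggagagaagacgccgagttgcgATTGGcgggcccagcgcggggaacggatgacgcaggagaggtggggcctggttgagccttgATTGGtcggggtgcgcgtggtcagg
Srebf2, chr7:115543057-115543306, plus strand: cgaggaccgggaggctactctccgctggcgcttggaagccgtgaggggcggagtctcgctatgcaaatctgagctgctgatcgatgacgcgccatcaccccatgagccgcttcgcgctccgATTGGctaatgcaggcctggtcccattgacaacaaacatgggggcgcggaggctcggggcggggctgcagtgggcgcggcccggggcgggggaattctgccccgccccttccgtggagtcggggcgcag
Nsdhl, chrX:155817110-155817359, plus strand: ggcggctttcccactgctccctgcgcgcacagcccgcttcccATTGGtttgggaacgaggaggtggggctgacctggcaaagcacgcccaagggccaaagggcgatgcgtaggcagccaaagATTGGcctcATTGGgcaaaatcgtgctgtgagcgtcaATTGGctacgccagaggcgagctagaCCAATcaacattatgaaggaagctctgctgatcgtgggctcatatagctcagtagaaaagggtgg
Ebp, chrX:16971212-16971461, plus strand: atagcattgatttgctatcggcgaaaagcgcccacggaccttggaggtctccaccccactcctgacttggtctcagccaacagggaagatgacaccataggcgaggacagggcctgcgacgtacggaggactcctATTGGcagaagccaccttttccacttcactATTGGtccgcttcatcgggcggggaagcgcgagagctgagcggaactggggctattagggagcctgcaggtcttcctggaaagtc
Abca1, chr5:72596474-72596723, minus strand: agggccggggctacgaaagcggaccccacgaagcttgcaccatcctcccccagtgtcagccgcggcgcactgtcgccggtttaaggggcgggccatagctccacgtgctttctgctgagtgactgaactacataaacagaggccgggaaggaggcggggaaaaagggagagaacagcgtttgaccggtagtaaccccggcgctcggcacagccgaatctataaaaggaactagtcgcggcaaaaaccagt
Npc1, chr18:3699801-3700050, minus strand: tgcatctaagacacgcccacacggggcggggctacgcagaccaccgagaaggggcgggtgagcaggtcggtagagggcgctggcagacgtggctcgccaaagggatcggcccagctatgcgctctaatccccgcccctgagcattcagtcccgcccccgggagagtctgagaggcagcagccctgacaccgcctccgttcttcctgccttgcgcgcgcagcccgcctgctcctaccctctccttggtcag

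Pairs of arrays had correlations between 0.981 and 0.997, and array medians lay between 4.05 and 4.15. Cell type markers differed among them. All 18 measured markers of myelinating oligodendrocytes, all 12 of striatal projection neurons and all 9 of oligodendrocyte precursors had higher means in FS, and all 7 of cortical glutamatergic neurons had lower means. Means in FS were also higher for all 7 markers of meningeal fibroblasts, for 9 of 12 of astrocytes, 4 of 9 of microglia, 2 of 6 of endothelium and 2 of 5 of smooth muscle and pericytes. A marker score, the mean over a list of each marker's log2 value minus its mean over the 16 arrays, placed Control 6 at 1.72 for the striatal list, while the other controls lay between −0.96 and 0.19 and the FS arrays between −0.96 and 1.43. Across all 11352 tested probe sets, 0 passed an adjusted p of 0.05 (limma, Benjamini-Hochberg), 1058 (9.32%) had an unadjusted p under 0.05, and 42.5% had the higher mean in FS.

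Immediately after the session, 0 of the 30 sterol genes passed the adjusted threshold between FS and controls (smallest limma adjusted p = 0.501). Of the 30, 15 had the higher mean in FS and 15 the lower, with a median difference of 0.001 against −0.02 over all probe sets. The 16 synthesis enzymes split 7 higher and 9 lower, with a median of −0.006. The split moved with single arrays, with 10 of 30 higher without Control 6 and 18 without Control 4, and medians of the 30 from −0.022 (without Control 6) to 0.030 (without Control 3). Only 3 of the 30 (10%) had an unadjusted p under 0.05, a share close to the 9.32% of all probe sets, with Npc1 and Npc2 higher in FS and Fdps lower. The 95% intervals of the 30 differences lay between −0.38 and 0.36, and the groups overlapped for every one of them, as they did for all but 0.0617% of probe sets.

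**Figure D1:**
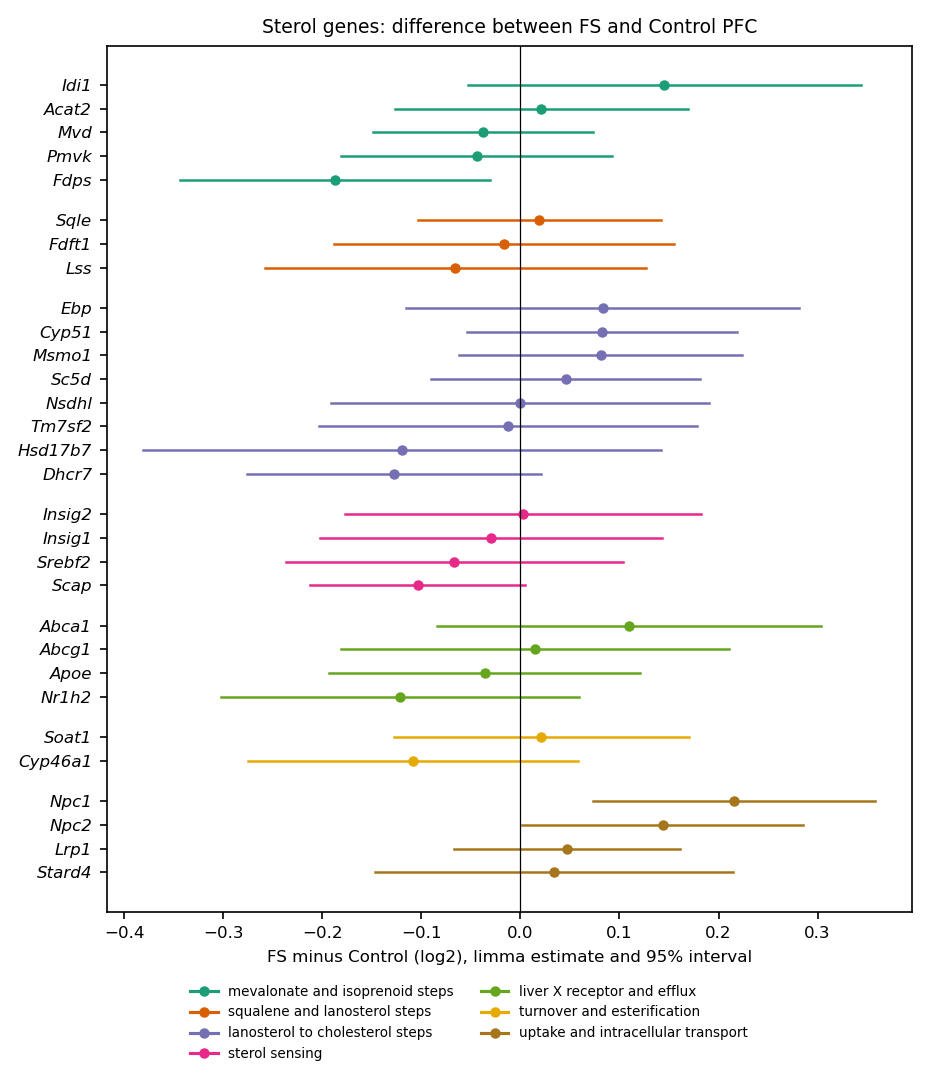
FS minus Control difference (log2, x axis) of each of the 30 sterol genes (y axis), grouped and coloured by role; points are limma estimates and lines 95% intervals, n = 8 arrays per group. Estimates ran from −0.19 for Fdps to 0.22 for Npc1, and only the intervals of Fdps, Npc1 and Npc2 did not reach 0.

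Of the 5 measured genes of the mevalonate and isoprenoid steps, 2 had higher and 3 lower means in FS. Fdps (probe set 10824388), which makes farnesyl pyrophosphate, ran from 7.32 to 7.60 in controls, with a median of 7.49, and from 6.94 to 7.57 in FS, with a median of 7.33. FS 3 was the lowest array, and 1 of 8 FS arrays lay above the Control mean. The difference was −0.19 ± 0.07 (SE, n = 8 per group; limma p = 0.0218, adjusted p = 0.514; exact two-sided permutation p = 0.0221). Idi1, the isopentenyl diphosphate isomerase just upstream, ran from 5.31 to 5.88 in controls (median 5.68) and from 5.53 to 6.11 in FS (median 5.79). The highest array was FS 4 and the lowest Control 6, and the difference of 0.15 ± 0.09 did not pass (limma adjusted p = 0.591; exact permutation p = 0.170). So the gene above and the gene below in the pathway had differences of opposite sign, and neither passed the adjusted threshold. Acat2, which condenses acetyl-CoA, and the mevalonate enzymes Pmvk and Mvd differed by 0.02, −0.04 and −0.04. The other probe set of Acat2 gave −0.003, of the opposite sign.

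Of the squalene and lanosterol steps, 1 of 3 genes had the higher mean in FS. Sqle, the squalene epoxidase and a rate-limiting step, ran from 7.31 to 7.62 in controls (median 7.51) and from 7.36 to 7.66 in FS (median 7.52), a difference of 0.02 ± 0.06 with a 95% interval from −0.10 to 0.14. Lss, the lanosterol synthase, ran from 6.53 to 7.10 in controls (median 6.64) and from 6.29 to 6.81 in FS (median 6.69). Its highest value was Control 1, with the next control at 6.78, and the difference of −0.07 ± 0.09 did not pass (limma adjusted p = 0.799) and was −0.0073 without that array. Fdft1, the squalene synthase, differed by −0.02.

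The 8 genes from lanosterol to cholesterol split evenly, 4 higher and 4 lower. Dhcr7, the last enzyme of one branch, ran from 6.19 to 6.56 in controls (median 6.40) and from 6.05 to 6.49 in FS (median 6.26), and 2 of 8 FS arrays lay above the Control mean. The difference was −0.13 ± 0.07 (limma p = 0.0869, adjusted p = 0.559; exact permutation p = 0.0936). Ebp, the sterol isomerase, ran from 6.03 to 6.55 in controls (median 6.37) and from 6.18 to 6.70 in FS (median 6.32), a difference of 0.08 ± 0.09. The medians and the means of Ebp differed in sign. Cyp51 and Msmo1, which remove methyl groups from lanosterol and its products, were both 0.08 higher, Sc5d was 0.05 higher, and Nsdhl, Tm7sf2 and Hsd17b7 differed by −0.0003, −0.01 and −0.12.

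Among the sensing genes, 1 of 4 had the higher mean in FS. Scap (probe set 10913640) ran from 7.73 to 7.96 in controls (median 7.89) and from 7.65 to 7.97 in FS (median 7.76), and 1 of 8 FS arrays lay above the Control mean. Its difference was −0.10 ± 0.05 (limma p = 0.0604, adjusted p = 0.540; exact permutation p = 0.0434). Srebf2 (probe set 10898091) ran from 7.96 to 8.47 in controls (median 8.41) and from 8.03 to 8.49 in FS (median 8.31). Control 6 and FS 3 were the lowest of their groups, the next control was at 8.32, and the difference of −0.07 ± 0.08 did not pass (limma adjusted p = 0.770; exact permutation p = 0.439). The 2 Insig genes were close to equal between groups. Insig1, itself a target of SREBP-2, ran from 7.84 to 8.44 in controls (median 8.17) and from 7.99 to 8.30 in FS (median 8.13), a difference of −0.03 ± 0.08. Its other probe set gave 0.05, of the opposite sign. Insig2 ran from 6.06 to 6.45 in controls (median 6.24) and from 6.02 to 6.57 in FS (median 6.19), a difference of 0.002 ± 0.09, with a 95% interval from −0.18 to 0.18.

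**Figure D2:**
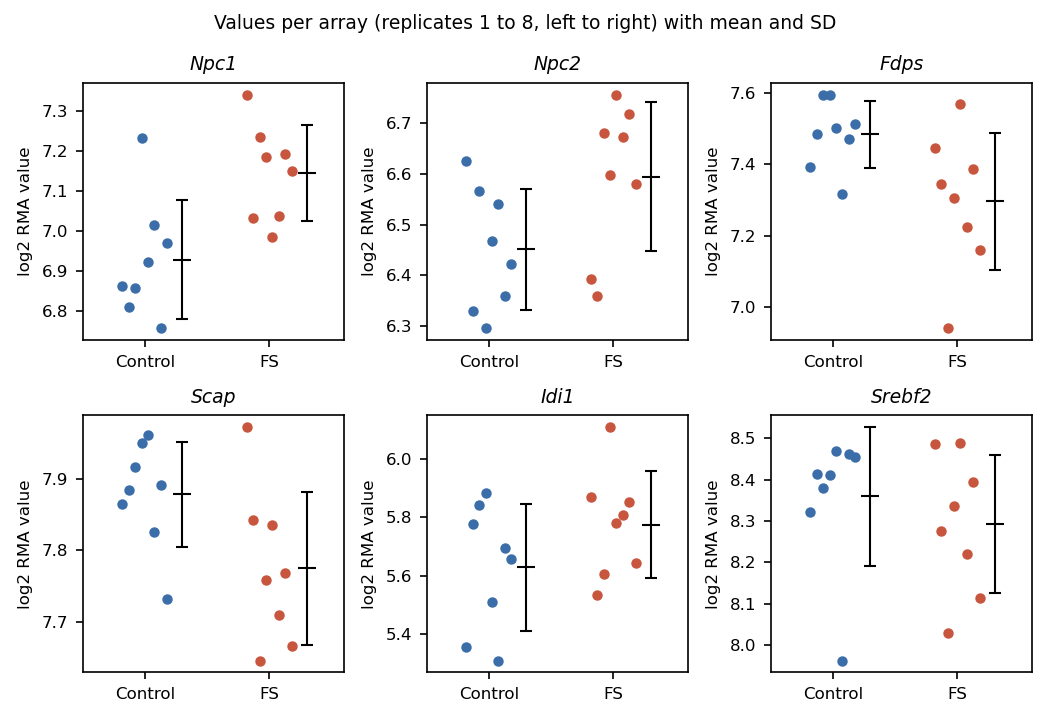
Log2 RMA values (y axis) of 6 sterol genes in each array, 8 Control and 8 FS, replicates 1 to 8 from left to right in each group, with mean and SD beside the points. For Npc1 all 8 FS arrays lie above the Control mean, and for Fdps and Scap 1 of 8 does, while the groups overlap in every panel; in Srebf2 the lowest point is Control 6 at 7.96.

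The export genes showed no common direction, 2 of 4 higher. Abca1, which loads cholesterol onto apolipoproteins, ran from 5.95 to 6.56 in controls (median 6.26) and from 6.08 to 6.62 in FS (median 6.37), and the difference was 0.11 ± 0.09 (limma adjusted p = 0.665; exact permutation p = 0.274). Nr1h2, the liver X receptor beta, ran from 7.18 to 7.48 in controls (median 7.30) and from 6.93 to 7.53 in FS (median 7.17), a difference of −0.12 ± 0.09 (adjusted p = 0.612). The receptor and its export target thus had differences of opposite sign, and neither passed. Abcg1, a second exporter, differed by 0.01 and Apoe, the main apolipoprotein of the brain, by −0.04.

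Of the turnover and storage genes, 1 of 2 had the higher mean in FS. Cyp46a1, the neuronal enzyme that makes 24S-hydroxycholesterol so that cholesterol can leave the brain, ran from 8.90 to 9.06 in controls (median 8.97) and from 8.61 to 9.23 in FS (median 8.87). The FS arrays reached beyond the controls on both sides, with FS 3 lowest and FS 1 highest, and the difference was −0.11 ± 0.08 (limma adjusted p = 0.622; exact permutation p = 0.205). Soat1, which esterifies cholesterol for storage, ran from 4.72 to 5.15 in controls (median 4.97) and from 4.86 to 5.19 in FS (median 4.94), a difference of 0.02 ± 0.07.

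All 4 uptake and transport genes had higher means in FS, with a median difference of 0.10. Npc1 (probe set 10803238), the membrane protein that releases cholesterol from late endosomes and lysosomes, ran from 6.76 to 7.23 in controls (median 6.89) and from 6.99 to 7.34 in FS (median 7.17). All 8 FS arrays lay above the Control mean, as they did for 2.23% of all probe sets, and only Control 4 lay above the FS median. The difference was 0.22 ± 0.07, or 16.1% on the linear scale (limma p = 0.00520, adjusted p = 0.501; exact permutation p = 0.00870, against a smallest possible p of 0.000155). Npc2, the soluble partner that hands cholesterol to Npc1, ran from 6.30 to 6.63 in controls (median 6.45) and from 6.36 to 6.76 in FS (median 6.64), and 6 of 8 FS arrays lay above the Control mean. Its difference was 0.14 ± 0.07 (limma p = 0.0472, adjusted p = 0.528; exact permutation p = 0.0516). Stard4, a cytosolic sterol carrier, ran from 4.95 to 5.37 in controls (median 5.21) and from 4.93 to 5.47 in FS (median 5.24), a difference of 0.03 ± 0.09, and Lrp1, a receptor for Apoe particles, differed by 0.05.

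Npc1 is set here beside the markers of myelin. The myelin score lay between −0.60 and 0.20 in controls and between −0.04 and 0.36 in FS, with Control 2, 3 and 7 at −0.58, −0.56 and −0.60. With the group as a term, Npc1 had a slope of 0.40 ± 0.11 per unit of the score (limma adjusted p = 0.185). Fitted beside the myelin score, its FS difference was 0.06 ± 0.07. In that fit Idi1 was the 1 gene of 30 with an unadjusted p under 0.05, against 2.46% of all probe sets. Npc2 had a slope of 0.007 ± 0.15 on the same score. Fitted beside the striatal score, Npc1 differed by 0.20 ± 0.08. The part of oligodendrocyte content in the Npc1 difference was not tested.

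Beyond the 30 genes, 55 of 75 further genes of the pathway were tested, of which 25 had higher and 30 lower means in FS. The median difference was −0.003, 0 passed the adjusted threshold, and 5 higher and 4 lower genes had an unadjusted p under 0.05, against 3.65% and 5.67% of all probe sets. Means were higher for 5 of 10 other synthesis and isoprenoid genes, 2 of 7 genes of SREBP processing and enzyme degradation, 8 of 13 fatty acid synthesis targets, 2 of 8 further liver X receptor targets and lipoprotein genes, 5 of 13 further uptake and transport genes, and 3 of 4 oxysterol and steroid genes. Ch25h, with a Control mean of 3.89, under the filter level of 4, is counted among these 3 and among the 5 higher genes above.

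The 6 further genes with the smallest p split 4 higher and 2 lower. Stard3, a late endosomal sterol transporter that works beside Npc1, ran from 7.13 to 7.64 in controls (median 7.45) and from 6.65 to 7.52 in FS (median 7.15), and 1 of 8 FS arrays lay above the Control mean. Its difference was −0.37 ± 0.11 (adjusted p = 0.501; exact permutation p = 0.00917). So the 2 late endosomal proteins Npc1 and Stard3 had differences of opposite sign, and neither passed. Gramd1a, which carries cholesterol from the plasma membrane to the endoplasmic reticulum, ran from 7.27 to 7.64 in controls (median 7.38) and from 7.11 to 7.41 in FS (median 7.22), a difference of −0.15 ± 0.06 (adjusted p = 0.514 by limma). Ch25h, which makes 25-hydroxycholesterol, ran from 3.55 to 4.28 in controls (median 3.82) and from 3.69 to 4.56 in FS (median 4.25), a difference of 0.33 ± 0.12 (adjusted p = 0.509). Its Control mean lay under the level of 4 asked of the mean over all arrays, so its inclusion rested on the FS arrays. Acsl3 and Fnta, an acyl-CoA synthetase and a subunit of the enzymes that attach isoprenoids to proteins, were 0.12 ± 0.05 and 0.15 ± 0.06 higher, each in 7 of 8 FS arrays above the Control mean (adjusted p = 0.514 and 0.520). Abca2, a lipid transporter of oligodendrocytes, was 0.14 ± 0.06 higher, with 8 of 8 FS arrays above the Control mean (adjusted p = 0.523), and −0.02 when fitted beside the myelin score.

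The spread of the sterol genes among arrays is described next. Control 6 was the lowest control for 14 of the 30 genes and for 11 of the 16 synthesis enzymes, and FS 3 was the lowest FS array for 12 of the 30. The mean of the 16 enzymes, each relative to its mean over the arrays, lay between −0.22 (Control 6) and 0.15 (Control 3) in controls and between −0.16 (FS 3) and 0.12 (FS 4) in FS, with a group difference of −0.008.

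Control 6 and FS 3 were also the arrays with the highest striatal scores. FS 3 had the highest meningeal score as well, 1.584, where the other arrays lay between −0.74 and 0.61 and Control 6 at −0.64, and the part of either marker list in these values was not tested. With the group as a term, 26% of all probe sets were associated with the striatal score (limma, p adjusted over all, under 0.05). Of the 30 genes, 14 (46.7%) were associated with it. Of the 30, 13 (43.3%) were associated with a slope below 0, against 17.7% of all probe sets. Only 1 of the 30, Abca1, was associated with a slope above 0, against 8.32%. The 13 were the enzymes Acat2, Pmvk, Idi1, Fdps, Fdft1, Msmo1, Nsdhl, Hsd17b7, Ebp and Dhcr7, and the regulators and carrier Srebf2, Insig1 and Stard4. All 16 synthesis enzymes had slopes below 0, from −0.25 to −0.02 with a median of −0.11, against 58.7% of all probe sets and a median of −0.02. The markers defining the score are genes of medium spiny neurons such as the dopamine receptors, and none is a sterol gene.

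**Figure D3:**
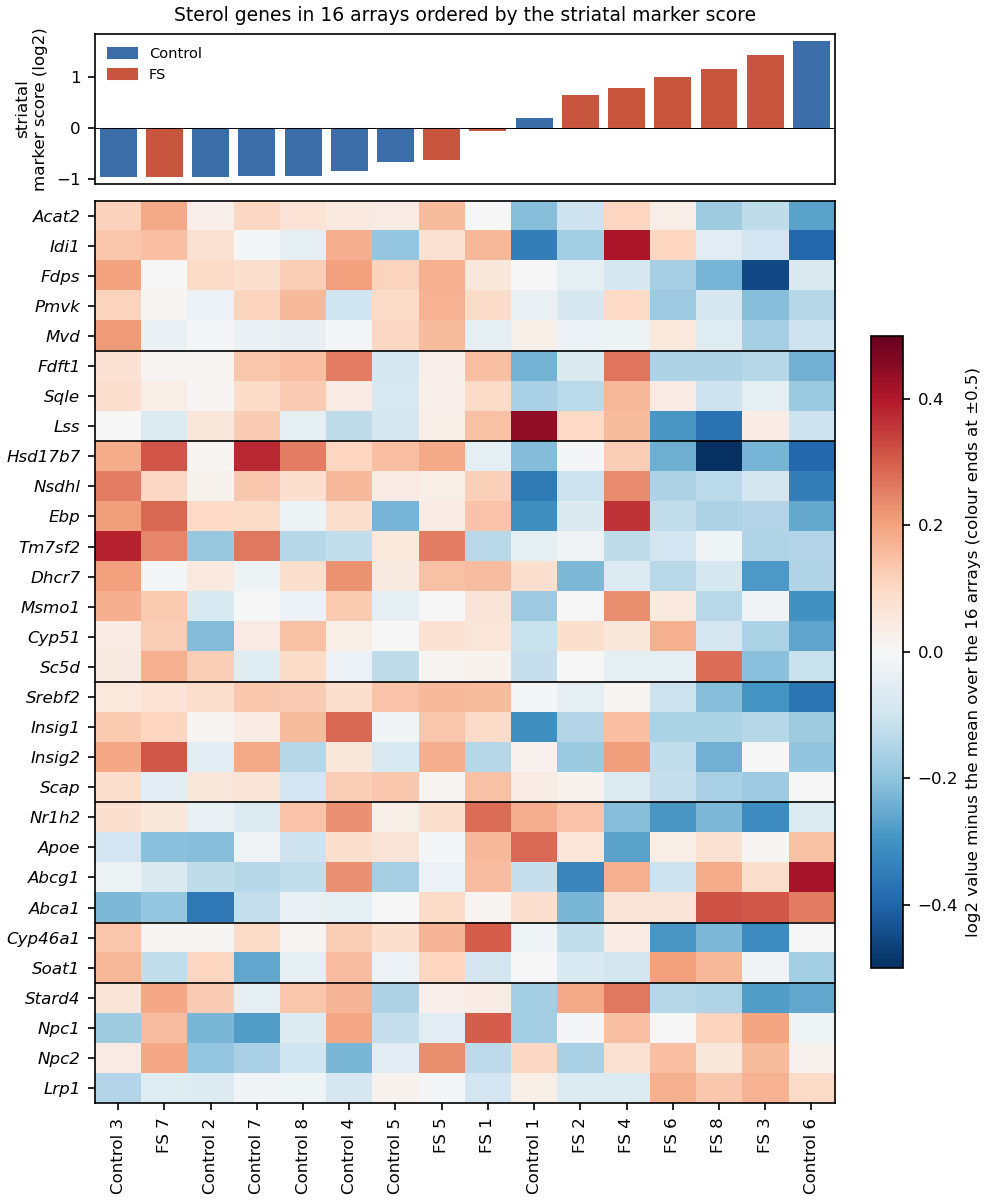
Upper panel: striatal marker score (log2, y axis) of the 16 arrays, ordered from lowest to highest, Control in blue and FS in red. Lower panel: log2 value of each of the 30 sterol genes minus its mean over the 16 arrays (colour, ends at ±0.5), in the same array order, with lines between roles; most synthesis enzymes are below their mean in the arrays at the right end, FS 8, FS 3 and Control 6, and Abca1 is above its mean there.

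Srebf2 had the smallest adjusted p. Its level went down by 0.17 ± 0.03 per unit of the striatal score (limma adjusted p = 0.000205), and Hsd17b7, the 3-ketosteroid reductase, had the steepest slope, −0.25 ± 0.04 (adjusted p = 0.000515). Srebf2 had a slope of −0.17 in the controls alone (adjusted p = 0.0120) and −0.16 in the FS arrays alone (adjusted p = 0.0650). Among the controls, Control 6 had both the highest striatal score, 1.72, and the lowest Srebf2 value, 7.96. The controls alone were not fitted without that array. Abca1 had the opposite slope, 0.15 ± 0.04 (adjusted p = 0.0118). Slopes of Abcg1, Lrp1 and Apoe were 0.10 ± 0.05, 0.07 ± 0.03 and 0.07 ± 0.04, and did not pass (limma adjusted p = 0.135, 0.0505 and 0.181). Without Control 6 the slope of Abcg1 was 0.025.

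**Figure D4:**
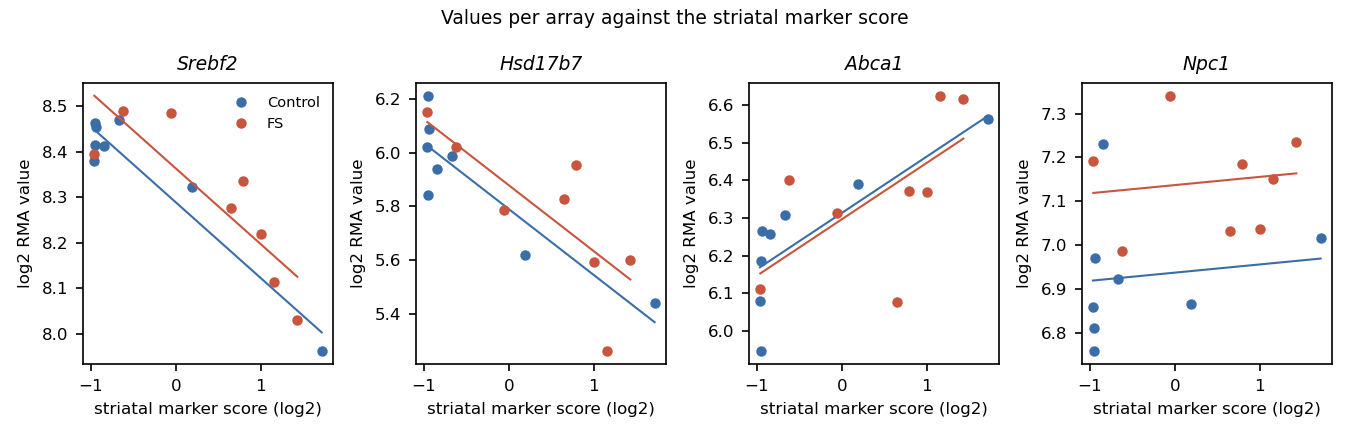
Log2 RMA value (y axis) of Srebf2, Hsd17b7, Abca1 and Npc1 in each array against its striatal marker score (log2, x axis), Control in blue and FS in red; lines have the slope fitted across both groups. Slopes were −0.17, −0.25, 0.15 and 0.02, and the Control point at the far right is Control 6.

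The number of associated genes depended on Control 6 and FS 3. Without Control 6, 6 of the 30 genes were associated, against 17.4% of all probe sets, without FS 3, 9 (21.3%), and without both, 4 (11.2%). In the controls alone 5 genes passed (9.92% of all), and in the FS arrays alone 0 passed, against 8.19% of all. At an unadjusted p under 0.05 by limma, 10 of the 30 did so in the FS arrays alone, against 25.4% of all probe sets. In the controls alone 15 did so (24.9% of all), without Control 6, 16 (32.5%), without FS 3, 20 (34.8%), and without both, 9 (27.5%). Signs of the enzyme slopes changed less than the count of associated genes. Of the 16 synthesis enzymes, 16 had slopes below 0 without both arrays and in FS alone, 15 in the controls alone, and 15 or 16 with any 1 array left out. The share of all probe sets with a slope below 0 was not computed in these settings. It was not computed in such settings for the scores below either, so these sign counts stand without a comparison. Without both arrays the slope of Srebf2 was −0.13 (adjusted p = 0.0492) and that of Hsd17b7 −0.30.

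The score of cortical glutamatergic neurons, fitted after the results above were seen, gave the reverse picture. On it 18 of the 30 genes passed, against 29.2% of all probe sets, and none of the 16 synthesis enzymes had a slope below 0. Srebf2 went up by 0.32 per unit (limma adjusted p = 4.99e-05) while Abca1 had a slope of −0.32. Control 6 lay at −0.82 on this score, against 0.02 to 0.48 in the other controls. FS 3 and FS 8 lay at −0.965 and −0.99. This score was not refitted without those arrays, and the share of all probe sets with a slope below 0 was not computed. Both scores come from the same 16 arrays, with striatal markers higher and glutamatergic markers lower in FS, so their associations are not separate results. Whether the dissected tissue held unequal parts of striatum and cortex was not tested.

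Fitted beside the striatal score, 20 of the 30 genes had the higher estimate in FS, against 49.7% of all probe sets, with a median of 0.08. Of these, 6 had an unadjusted p under 0.05, against 4.09% of all probe sets in either direction and 2.02% with the higher estimate in FS, and 0 passed the adjusted threshold (limma adjusted p of 0.996). They were Npc1 (0.20), Ebp (0.20), Cyp51 (0.16), Msmo1 (0.16), Acat2 (0.13) and Idi1 (0.26 ± 0.09, unadjusted p = 0.00951). The score itself was 0.85 higher in FS, so this fit and the one without it answer different questions. On the score, 24 of the 30 genes had slopes below 0. The upward move of their estimates follows from those slopes and is not a separate result. The fit with the striatal score was not repeated without Control 6.

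Astrocytes supply much of the cholesterol and Apoe that neurons use. On the astrocyte score 3 of the 30 genes passed, against 3.51% of all probe sets (2.05% with a slope above 0 and 1.46% below). Apoe had a slope of 1.07 ± 0.28 (limma adjusted p = 0.0458), and Stard4 and Hsd17b7 had slopes of −1.37 ± 0.29 and −1.85 ± 0.45 (adjusted p = 0.0282 and 0.0398). Abca1, Abcg1 and Lrp1 had slopes of 1.28 ± 0.36, 0.69 ± 0.45 and 0.60 ± 0.24, which did not pass (adjusted p = 0.0529, 0.344 and 0.128), and the slope of Abcg1 was 0.38 without Control 6. All 16 synthesis enzymes had slopes below 0, against 51.3% of all probe sets. Of the 16, 13 had such slopes in the controls alone and without Control 6 and FS 3 together, and 14 without Control 6. The count of associated genes was 0 in either group alone, where 0 of all probe sets passed too. It was also 0 without any 1 of Control 1, Control 2, Control 6, FS 7 or FS 8 (at most 0.0793% of all). It was 6 without Control 3, against 9.06% of all.

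On the myelin score 0 of the 30 genes passed, against 0.625% of all probe sets by limma (0.564% above 0 and 0.0617% below). At an unadjusted p under 0.05 there were 4 of 30, against 12.5% of all probe sets. Its highest slopes were those of Abca1 (0.47 ± 0.17), Abcg1 (0.41 ± 0.18), Npc1 and Apoe (0.28 ± 0.15), and the lowest those of Hsd17b7 (−0.44 ± 0.25) and Tm7sf2 (−0.46 ± 0.16). All 16 synthesis enzymes had slopes below 0, with a median of −0.18, against 57.6% of all probe sets. Without Control 6 it was 13 of 16, the slope of Abcg1 was 0.25 and that of Hsd17b7 −0.26, and in the FS arrays alone 9 of 16 enzymes were below 0. The slope of Tm7sf2 was −0.69 without Control 2. The striatal, astrocyte and myelin scores come from the same arrays, so their counts of enzyme slopes are not separate results.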

How the data were processed

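The authors extracted RNA with TRIzol, labelled it with the Ambion WT kit, and deposited log2 values made by RMA with oligo 1.58.0, per the labels, for 29214 probe sets in 16 arrays. Symbols came from the platform annotation, where 18644 probe sets have 1 gene symbol, 962 several and 9608 none, and 18460 were found in RefSeq (GRCr8). Tests covered the 11352 probe sets that had a single symbol and averaged above 4, and the probe set with the highest mean stood for a gene.

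FS and Control were compared with limma 3.58.1 in R 4.3.3 (lmFit, eBayes, group only; Benjamini-Hochberg over all tested probe sets). Single genes also had an exact two-sided permutation test over 12870 assignments. Associations fitted group and a marker score. The scripts were tested on simulated data. Members, lists and tests were chosen with earlier results of these data known. Genes named in full were those with an unadjusted p under 0.05, the highest and lowest difference of each role, Srebf2 and Insig1, the 6 other pathway genes with the smallest p, and, for each score, the 4 highest and 2 lowest slopes. No arrays were identical. Replicate numbers did not pair the arrays. The labels give 1 sample per array and replicate numbers but no animal, cage or batch, so p-values measure the spread between these samples, and the number of arrays limits the precision. Filters, scaling, priors, probe set choice, marker covariates and left-out arrays were tried as alternatives.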

Additional observations from a re-analysis of the deposited data

Results flagged for a closer look

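In 4 of 78 groups of 8 arrays (5.13%), 1 array stood far from the other 7 by Dixon's criterion, which chance gives in about 1 of 20 groups, or 3.9 of 78. Srebf2 in controls had its lowest value, 7.96, in Control 6, with the next control at 8.32 and the highest at 8.47. The striatal score in controls was 1.72 in Control 6, with the next at 0.19 and the lowest at −0.96. Lss in controls was 7.10 in Control 1, with the next at 6.78 and the lowest at 6.53. Gramd1a in controls was 7.64 in Control 1, with the next at 7.44 and the lowest at 7.27.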

How the results depend on the processing

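Over 28 alternatives, 642 differences of single named genes were recomputed. Of these, 27 changed sign, 10 of them without 1 array being left out, and 0 passed the adjusted threshold by limma. Insig1 was 0.0079 with probe sets averaged. With the myelin score as a covariate, 279 probe sets and 1 of the 30 genes, Idi1, had an unadjusted p under 0.05, and Srebf2 was 0.034, Insig1 0.0089, Abca1 −0.074 and Abca2 −0.021. With the striatal score, 464 probe sets and 6 genes had such a p, and Srebf2 was 0.075, Insig1 0.082 and Abca1 −0.017. With the astrocyte score Insig1 was 0.020. Without Control 6 and FS 3 together, 1 probe set, of Hhip, passed the adjusted threshold and Insig2 was −0.025.

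With 1 array left out, 0 to 1 probe sets passed the adjusted threshold (1 without FS 2, of Apold1; both genes are named after their values were seen). Between 648 (without FS 3) and 1870 (without Control 6) had an unadjusted p under 0.05, and 665 without FS 6. Between 2 and 7 of the 30 genes did so. There were 7 without FS 1 (Fdps, Dhcr7, Scap, Nr1h2, Cyp46a1, Npc1 and Npc2), where 1356 of the 11352 probe sets did so. Differences ranged from −0.0061 to 0.040 for Sqle, −0.076 to 0.0092 for Insig1, −0.042 to 0.037 for Insig2, −0.014 to 0.046 for Soat1 and −0.0013 to 0.076 for Stard4. They also moved by over 1.5 times for Lss (−0.0073 without Control 1), Ebp (0.037 without FS 4), Srebf2 (−0.12 without Control 6 and −0.029 without FS 3), Abca1 (0.067 without Control 2) and Cyp46a1 (−0.072 without FS 3). Between 10 and 18 of the 30 genes were higher in FS, and the median of the synthesis enzymes ran from −0.042 (without Control 6) to 0.034 (without Control 3). The cause of these moves was not tested.

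Associated genes on the striatal score numbered 11 (27.4% of all probe sets) with arrays centred on their median. Of these 11, 8 had slopes below 0, as did 15 of the 16 synthesis enzymes. Associated genes numbered 4 (11.2%) without Control 6 and FS 3, which are also the 2 arrays farthest from the median score. They numbered 5 (9.92%) in controls alone and 0 (8.19%) in FS alone. With 1 array left out they numbered 6 (17.4%, without Control 6) to 18 (28.1%, without FS 4). On the astrocyte score they numbered 5 (6.73%) with arrays centred on their median, 0 without Control 6 and FS 3, without the 2 arrays farthest from its median and in each group alone, where 0 of all probe sets passed too, and 0 to 6 with 1 array left out (6 without Control 3, 9.06%). On the myelin score they numbered 1 (0.731%) with arrays centred and 0 to 1 with 1 array left out (1 without Control 2), and 9 synthesis enzymes had slopes below 0 in FS alone. These arrangements for the striatal and astrocyte scores were added after the data were seen.

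Same-numbered arrays had correlations of their deviations from −0.313 to 0.492, above 0.1 for 4 of 8 pairs, and 1 of 8 controls matched its own number best. With replicate number as a block, 0 probe sets passed the adjusted threshold, 1242 had an unadjusted p under 0.05, and 2 of the 30 genes did, Fdps and Npc1, and Npc2 no longer did. No adjusted call between FS and Control changed, and the associations were not refitted with the block.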
